A study of Mus musculus with 8 samples.

Results

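The genes described here encode the contractile actin and myosin apparatus and its transcription factor SRF: Myl9, Tagln, Acta2, Actg2, Cnn1, Cnn2, Tpm1, Tpm2, Vcl and Srf. They are 10 of the 38991 genes in the deposited expression files, picked by name because Myl9 was far higher in 1 of the 4 culture conditions, LIF+PD, than in the others. That contrast therefore chose the set, and every comparison of these genes with LIF+PD below is a description without a test. The data are RNA-seq of 8 cultures of RGd2 (Rex1GFPd2) embryonic stem cells (ESCs), a mouse line of strain 129 with a GFP reporter at the Rex1 locus. All 8 cultures were grown on gelatin in serum-free N2B27 medium, came from cells first kept in 2i for 6 passages, and then spent 5 passages in their own condition, with a split every 3 days. The conditions, with 2 cultures each, were LIF+PD, CH+LIF, 2i and 2i+LIF, where 2i is CH plus PD, CH is the GSK3 inhibitor CHIR99021 at 3 µM, PD is the Mek inhibitor PD0325901 at 1 µM and LIF is a cytokine that sustains ESC self-renewal. Going from 2i+LIF, the other media thus lack LIF (2i), PD (CH+LIF) or CH (LIF+PD). All cultures come from 1 cell line, and the labels do not say how far the 2 cultures of a condition were kept apart, so p-values measure only the spread between these cultures.

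Non-muscle and smooth muscle cells contract when myosin II, whose activity is set by phosphorylation of its regulatory light chain, pulls on actin filaments that are decorated with tropomyosins and calponins and anchored at adhesions through proteins such as vinculin. SRF (serum response factor) binds a short DNA element, the CArG box, in the promoters of many of these genes and of its own gene. SRF works with 2 families of cofactors: the MRTFs, which are held back by monomeric actin, and the ternary complex factors (TCFs), which are phosphorylated by ERK, the kinase downstream of Mek.

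The DNA before the start of these genes is shown first, since the CArG box is the element that defines an SRF target. RefSeq windows on GRCm38.p6, the assembly of the mm10 build, reach from 250 bases before a gene's start to 50 bases after it and were at hand for 8 of the 10 genes: Myl9, Acta2, Cnn1, Cnn2, Tpm1, Tpm2, Vcl and Srf. Both strands were searched for the CArG box, a 10-base motif whose reverse complement is again a CArG box. The genes were picked by name as contractile and SRF target genes. Shares above the background of all windows were thus built into the choice, and nothing is read from them. A box stood before the start in 4 of the 8 windows (Myl9, Cnn2, Vcl and Srf), against 1.467% of all 32851 windows. The stretches that hold these boxes are printed here 5′ to 3′ on the strand of the gene, with the boxes in capitals.
Myl9, chr2:156775278-156775337, + strand: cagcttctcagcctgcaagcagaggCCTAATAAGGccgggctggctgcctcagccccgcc
Cnn2, chr10:79988519-79988578, + strand: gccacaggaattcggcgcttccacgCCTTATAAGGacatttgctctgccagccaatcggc
Vcl, chr14:20929148-20929205, + strand: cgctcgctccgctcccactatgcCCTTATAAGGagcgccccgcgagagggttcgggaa
Srf, chr17:46556190-46556269, - strand: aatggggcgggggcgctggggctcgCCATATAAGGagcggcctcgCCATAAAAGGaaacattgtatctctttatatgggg

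The Myl9 box began 161 bases before the RefSeq start, the Cnn2 box 56 and the Vcl box 227 bases before it. Cnn2 and Vcl hold the same 10 letters. Srf held 2 boxes, beginning 82 and 62 bases before its start, and only 6 of all windows (0.0183%) held 2 or more. When 1 mismatch was allowed, Acta2 and Tpm1 were added, for 6 of 8 windows against 18.62% of all windows. The Acta2 stretch is shown because its product is smooth muscle actin, the classical contractile gene, with the 2 near matches in capitals.
Acta2, chr19:34255374-34255482, - strand: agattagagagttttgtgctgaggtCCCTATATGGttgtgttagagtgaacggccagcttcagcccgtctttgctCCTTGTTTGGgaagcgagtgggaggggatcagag

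No match of either kind lay in the windows of Cnn1 and Tpm2. The starts of Tpm1 and Tpm2 in the deposited annotation lie 193 and 211 bases ahead of the RefSeq starts, so their windows largely cover bases inside the deposited gene. For the other 6 genes the starts were within 44 bases of each other. A match is a description of letters and not a site at which SRF was measured, and a window without one says only that the letters are not in it.

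**Figure D1:**
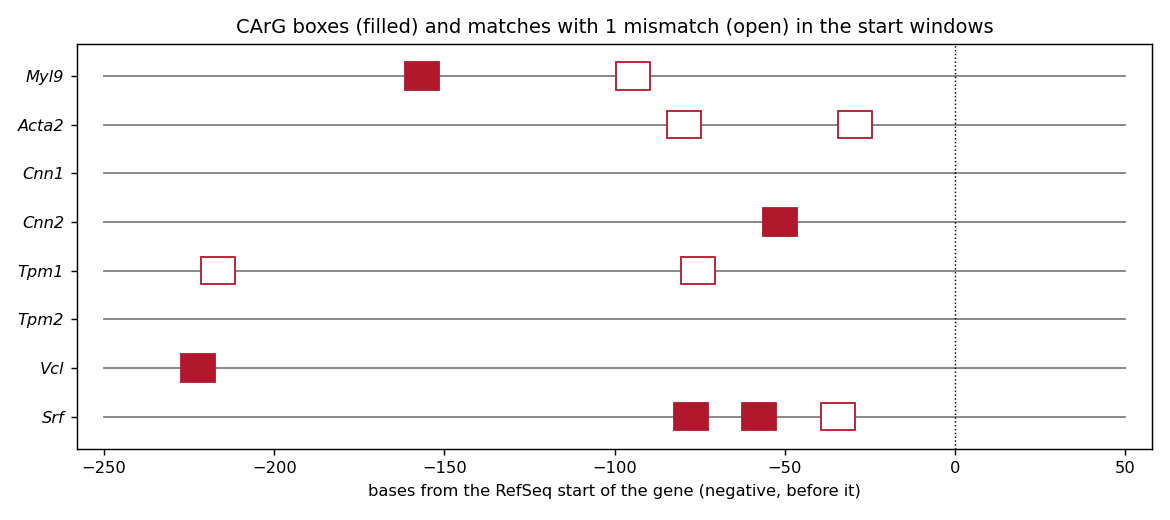
CArG boxes (filled) and matches with 1 mismatch (open) by distance in bases from the RefSeq start, one line per gene window. Filled boxes lie before the start of Myl9, Cnn2, Vcl and Srf, with 2 in Srf, and the lines of Cnn1 and Tpm2 are empty.

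The deposited values are FPKM (fragments per kilobase, adjusted for the number of mapped reads in the library), which put genes of different length on a common scale. Their sum ran from 715575 in CH+LIF replicate 2 to 875458 in 2i+LIF replicate 1. Comparisons between cultures therefore also depend on the scaling. Absolute read depth is not given. From what 1 read was worth in weakly expressed genes, the other 7 cultures were estimated at 0.4991 to 1.182 times the depth of the first 2i+LIF culture, and 2i replicate 1 was the shallowest. All 10 naive ESC markers (among them Pou5f1, Nanog, Esrrb and Zfp42) were at FPKM 1 or more in every culture, but their levels differed between conditions. Their summed FPKM was 3840 and 4301 in 2i+LIF and 3254 to 3784 in the other conditions. Klf4 was at 203 and 196 in 2i+LIF and 47.7 and 50.6 in 2i. Dppa3 was at 66.0 and 47.9 in 2i+LIF and 2.37 and 2.30 in CH+LIF. Zfp42 went the other way, at 217 and 193 in 2i+LIF and 253 and 260 in LIF+PD. Of 12 smooth muscle markers, Myh11 stayed at or below 0.0918 in every culture and Myocd was listed at 0 in 7 of 8, with 0.218 in LIF+PD replicate 1. The summed FPKM of those 12 markers was 38.8 and 39.3 in LIF+PD and 16.8 to 21.8 elsewhere. The list contains Acta2, Cnn1 and Tagln from the present set, whose values are given below and which add to the LIF+PD sums. Among its other genes, Smtn was at 21.2 and 19.6 in LIF+PD and at most 16.1 elsewhere, and Des at 6.81 and 5.43 in LIF+PD and at most 1.67 elsewhere. Lmod1 (1.02 and 0.97) and Kcnmb1 (0.134 and 0.173) were also highest in LIF+PD. Synpo2 was instead highest in 2i, at 1.05 and 0.337 against 0.259 and 0.261 in LIF+PD. Ldb3 and Casq2 had their highest means in CH+LIF. Ldb3 was at 0.820 and 0.974 there and 0.344 and 0.339 in LIF+PD, and Casq2 at 4.31 and 2.59 against 2.70 and 0.0442. Of 12 fibroblast markers, Col3a1, Lum, Dcn and Fap were listed at 0 in every culture, and the list's sum, nearly all Vim, was 382 and 408 in LIF+PD and 222 to 609 elsewhere. Postn was at 14.1 in CH+LIF replicate 2 alone and at most 0.0338 in the other cultures. Thy1 was at 0.117 and 0.160 in 2i+LIF and 1.11 to 3.43 in the other conditions. Sums of 8 trophectoderm markers were 78.2 and 94.3 in LIF+PD and 42.9 to 56.9 elsewhere, but the markers went different ways. Tfap2c (45.4 and 52.8) and Gata3 (14.4 and 18.4) were highest in LIF+PD, as were Krt18 and Krt7 at lower levels. The defining marker Cdx2 was instead lowest there, at 0.0433 and 0.0960. Cdx2 was at 1.90 and 0.733 in CH+LIF and at 7.91 to 12.2 in 2i+LIF and 2i. Eomes, at 1.22 and 1.76 in LIF+PD, overlapped 2i+LIF (1.63 and 1.42) and was higher in 2i and CH+LIF. Krt8 and Elf5 did not stand apart in LIF+PD. The sums of 10 striated muscle markers were 12.4 to 19.3 and those of 7 extraembryonic endoderm markers 6.13 to 24.3 over all cultures. Most of each endoderm sum was Lama1, at 4.18 to 21.9. Gata4 (1.93 and 1.83) and Dab2 (1.08 and 1.93) were highest in LIF+PD, against at most 1.41 and 0.772 elsewhere. Gata6, Sox17, Sox7 and Foxa2 stayed below 1 in every culture. In bulk RNA, a change in the number of cells of a type and in the RNA per cell cannot be told apart. The part of the smooth muscle, trophectoderm and extraembryonic endoderm markers in the LIF+PD values was not tested.

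Myl9, a regulatory light chain of myosin II, had the widest fold range of the genes detected in every culture. Its FPKM was 51.9 and 96.6 in the LIF+PD cultures, 2.60 and 3.31 in 2i, 0.742 and 0.570 in CH+LIF and 0.219 and 0.354 in 2i+LIF. The 4 conditions did not overlap, and the LIF+PD mean was 258.9 times that of 2i+LIF, 113.2 times that of CH+LIF and 25.1 times that of 2i. Each deposited value comes with a lower and an upper bound of unstated confidence level. The lowest LIF+PD bound for Myl9, 47.3, was far above the highest bound in any other culture, 6.42. On the log2(FPKM + 1) scale used for all differences below, Myl9 was 5.81 (SE 0.28) above 2i+LIF in LIF+PD, rank 2 among the 12927 genes tested.

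Relatives of the main genes are set beside them here as families that were drawn up after their values had been seen. The other regulatory light chains, Myl12a and Myl12b, are made by most cell types. Myl12a ranged from 226 to 391 FPKM and Myl12b from 184 to 295 FPKM over the 8 cultures, so both exceeded Myl9 everywhere. Myl9 made up 9.02% and 14.1% of the summed FPKM of the 3 genes in LIF+PD, 0.479% and 0.686% in 2i, 0.165% and 0.117% in CH+LIF and 0.0381% and 0.0684% in 2i+LIF. The summed FPKM of these light chains was 576 and 684 in LIF+PD and 449 to 575 in the other cultures, so its range was far narrower than that of Myl9 alone.

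Acta2 and Actg2 encode the smooth muscle actins. Acta2 reached 3.22 and 8.46 FPKM in LIF+PD, was at 0.113 and 0.117 in 2i, at 0 and 0.0956 in CH+LIF and was listed at 0 in both 2i+LIF cultures. The LIF+PD cultures lay above all others but differed 2.63-fold from each other, the widest gap between LIF+PD replicates in the set. Acta2 has near copies: 7 of its 2146 stretches of 50 bases (0.33%) also occur in transcripts of Actg1 and the pseudogenes Actg-ps1 and Gm12715, whereas the other 9 genes shared none with any other gene. Actg2 was listed at 0 in all 8 cultures and showed nothing of the pattern for which the set was named.

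These levels were a small part of the actin total, which came almost entirely from the cytoplasmic actins Actb and Actg1. Acta2 made up 0.156% ± 0.0933 (SD, n = 2) of the summed FPKM of Acta2, Actg2, Actc1, Actb and Actg1 in LIF+PD. Actb, cytoplasmic beta-actin, was at 3370 and 3594 FPKM in LIF+PD and 1880 to 2360 FPKM elsewhere. Actg1, cytoplasmic gamma-actin, was at 223 and 217 FPKM in LIF+PD and at 433 to 556 FPKM elsewhere. LIF+PD thus stood apart from all other cultures for both genes, in opposite directions. The share of Actg1 in the actin sum was 5.93% ± 0.363 in LIF+PD against 18.0% ± 0.170 in 2i+LIF, 22.0% ± 1.16 in 2i and 16.2% ± 0.941 in CH+LIF (SD, n = 2 each). A share within a culture does not depend on how the cultures are scaled, and the differences of Actb and Actg1 kept their signs under each scaling. Actin genes have near-identical copies, and how reads were divided among those limits the precision of both values.

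**Figure D2:**
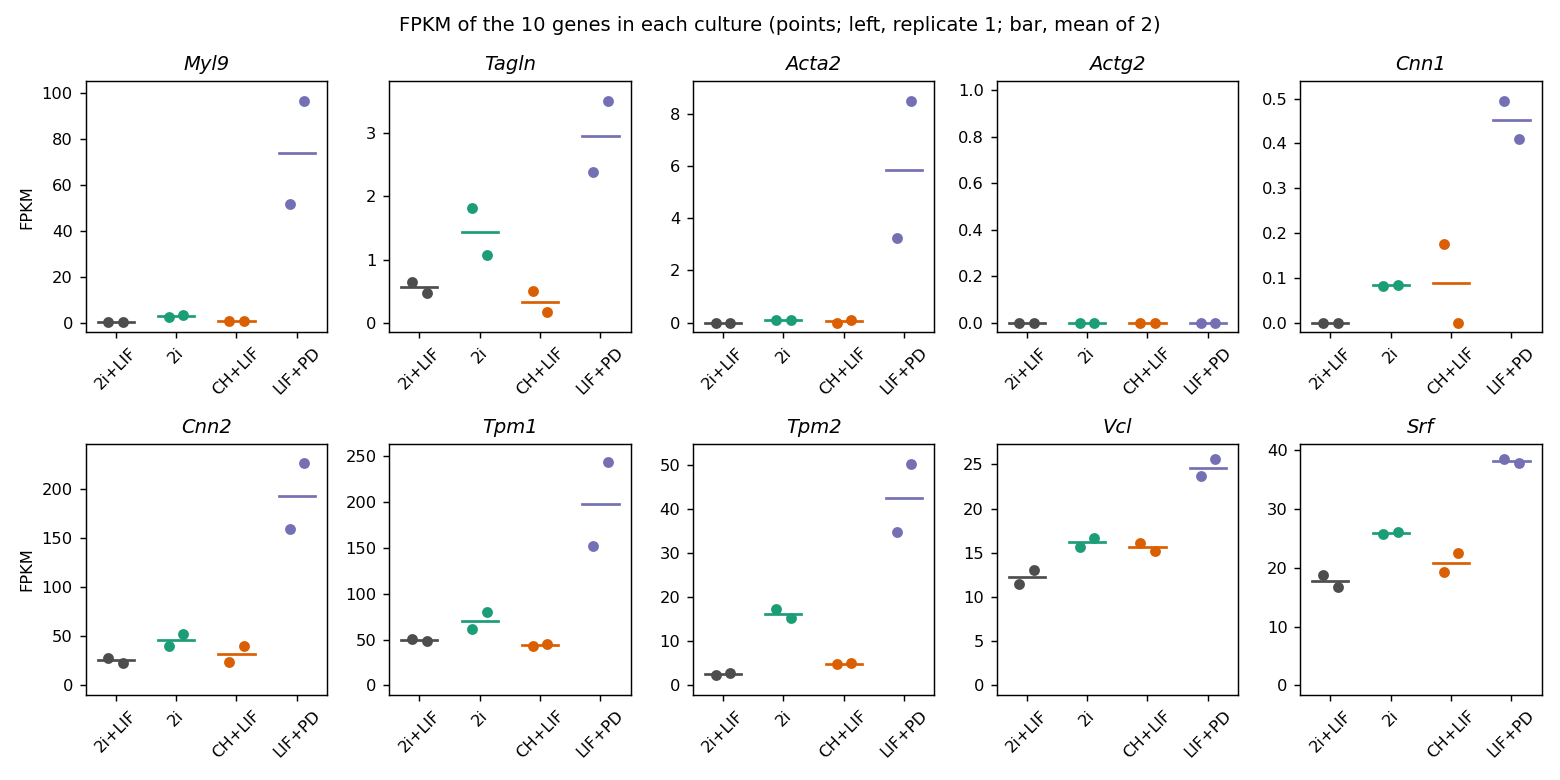
FPKM of each of the 10 genes (linear axes from 0, a separate one per gene) in the 2 cultures of each condition; points are cultures and bars are means of 2. LIF+PD points lie above all others in each panel except that of Actg2, which is at 0 throughout. LIF+PD chose the set, so this only describes the panels. The 2i mean is second in each panel except those of Cnn1 and Actg2.

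The calponins and Tagln (transgelin, or SM22) are actin-binding proteins best known from smooth muscle. Cnn2, the calponin of non-muscle cells, was at 159 and 226 FPKM in LIF+PD, 39.9 and 52.0 in 2i, 24.4 and 39.8 in CH+LIF and 28.1 and 23.0 in 2i+LIF. LIF+PD was apart from the rest, with a mean 7.55 times that of 2i+LIF, while CH+LIF and 2i+LIF overlapped. The broadly expressed relative Cnn3 stayed between 322 and 373 FPKM in all 8 cultures, and the share of Cnn2 in the calponin sum was 34.6% ± 4.51 in LIF+PD and 7.15% ± 0.686 in 2i+LIF (SD, n = 2).

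Cnn1, the smooth muscle calponin, was barely detected. It was at 0.494 and 0.411 FPKM in LIF+PD, 0.0825 and 0.0851 in 2i, 0.177 and 0 in CH+LIF and was listed at 0 in both 2i+LIF cultures. Its LIF+PD values were the highest, but their lowest bound, 0.166, was under the highest bound elsewhere, 0.289. Tagln was at 2.39 and 3.51 FPKM in LIF+PD, 1.81 and 1.07 in 2i, 0.647 and 0.472 in 2i+LIF and 0.499 and 0.164 in CH+LIF. The LIF+PD cultures again came first, with bounds that overlapped those of 2i, and CH+LIF overlapped 2i+LIF. Its non-muscle relative Tagln2 ranged from 66.3 to 150.3 FPKM and was highest in CH+LIF, so Tagln was at most 3.55% of the transgelin sum in any culture.

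Tpm1 and Tpm2 encode tropomyosins, which wind along actin filaments. Tpm1 was at 152 and 243 FPKM in LIF+PD, 61.1 and 80.5 in 2i, 50.5 and 48.9 in 2i+LIF and 43.3 and 45.3 in CH+LIF. The 4 conditions did not overlap, and the LIF+PD mean was 3.98 times that of 2i+LIF. Tpm2 was at 34.8 and 50.4 FPKM in LIF+PD, 17.3 and 15.4 in 2i, 4.85 and 5.03 in CH+LIF and 2.36 and 2.74 in 2i+LIF. Its conditions did not overlap either, its LIF+PD mean was 16.7 times that of 2i+LIF, and in 2i it was already 6.40 times as high. Tpm3, the main tropomyosin of these cells, stayed between 436 and 525 FPKM in all cultures. Tpm4 was at 111 and 154 FPKM in LIF+PD and 64.9 to 86.0 FPKM elsewhere, so it too was highest in LIF+PD. Tpm1 therefore went from 8.63% ± 0.131 of the tropomyosin sum in 2i+LIF to 23.3% ± 5.33 in LIF+PD, and Tpm2 from 0.443% ± 0.0496 to 5.04% ± 0.800 (SD, n = 2).

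**Figure D3:**
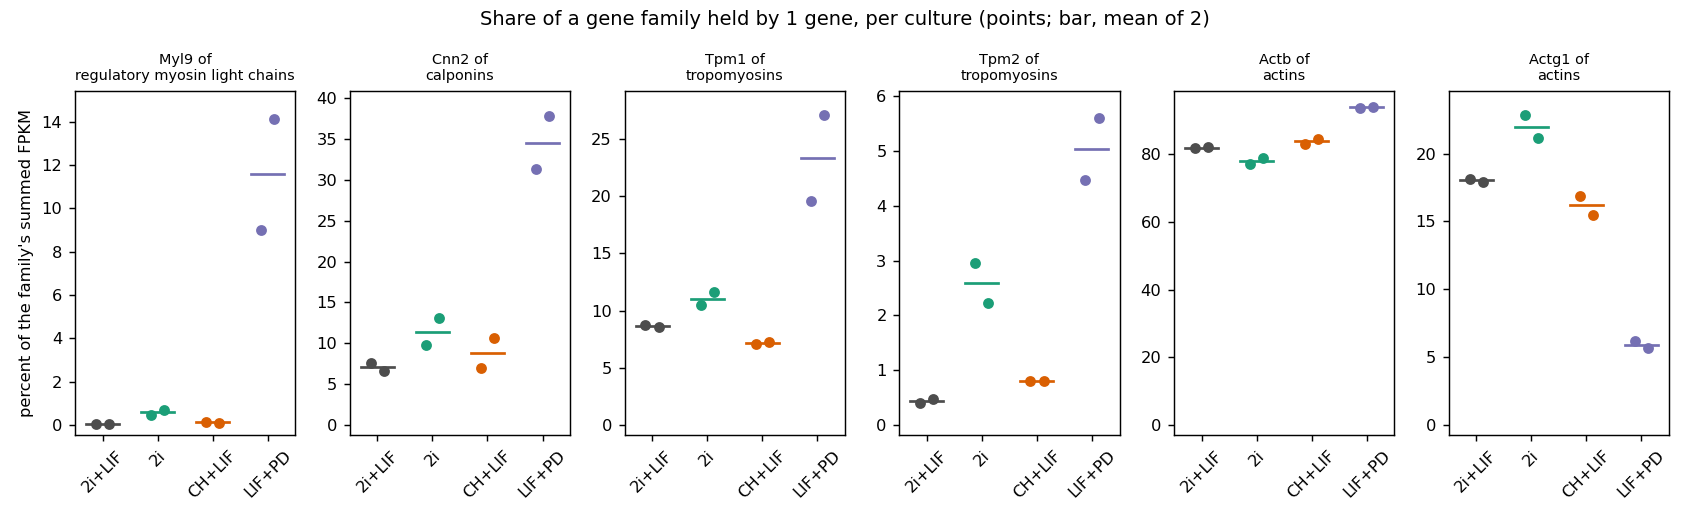
Percent of a family's summed FPKM held by 1 gene in each culture (linear axes from 0, a separate one per gene); points are cultures and bars are means of 2. The Myl9, Cnn2, Tpm1 and Tpm2 shares are highest in LIF+PD, whereas Actg1 is lowest there, at 6.19% and 5.68%.

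Vcl and Srf moved over the narrowest ranges. Vcl, vinculin of focal adhesions and cell junctions, was at 23.7 and 25.6 FPKM in LIF+PD, 15.7 and 16.7 in 2i, 16.1 and 15.2 in CH+LIF and 11.5 and 13.1 in 2i+LIF. LIF+PD and 2i+LIF stood apart from the rest at the top and the bottom, and 2i and CH+LIF overlapped. Srf was at 38.4 and 37.8 FPKM in LIF+PD, 25.8 and 26.0 in 2i, 19.2 and 22.4 in CH+LIF and 18.8 and 16.8 in 2i+LIF. Its conditions did not overlap, and the LIF+PD mean was 2.14 times that of 2i+LIF. The LIF+PD replicates of Vcl and Srf differed by factors of 1.08 and 0.984 (replicate 2 over replicate 1), against 1.42 to 2.63 for Myl9, Acta2, Cnn2, Tpm1, Tpm2 and Tagln, in all of which replicate 2 was the higher.

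In LIF+PD against 2i+LIF, the log2 differences of the other genes that passed the filter were 3.60 for Tpm2, 2.85 for Cnn2, 2.66 for Acta2, 1.93 for Tpm1, 1.33 for Tagln, 1.06 for Srf and 0.95 for Vcl. They ranked 14, 44, 55, 139, 389, 643 and 812 among the 12927 genes. Of all genes tested, 14.8% were called higher and 10.4% lower in this comparison at an adjusted p below 0.05; higher calls were 58.6% of all calls, and 74.9% with each culture scaled to the same sum. Nothing is read from the position of the 10 genes against these shares, as the contrast chose them. Against 2i, the differences were smaller for all 8 genes, from 4.19 for Myl9 to 0.54 for Srf. Against CH+LIF they ran from 5.44 for Myl9 to 0.63 for Vcl.

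The stated reason for choosing the genes used no comparison among the other 3 conditions. The genes were however chosen with earlier results of these data known, so the tests below are not independent of that knowledge. The comparisons among these 3 conditions were tested with limma on log2(FPKM + 1). All 8 cultures were in the fit, so the spread between the LIF+PD cultures enters the standard errors and p-values of these comparisons as well. Benjamini-Hochberg adjustment ran over all 12927 genes that reached FPKM 1 in at least 2 cultures. Of the 10 genes, 8 passed that filter, and Actg2 and Cnn1 did not. Acta2 passed only through its LIF+PD cultures, so it is left out of the counts, medians and p-values below, which cover the other 7 genes. Outside LIF+PD, Myl9 and Tagln reached FPKM 1 only in the 2i cultures, where they were higher. Without LIF+PD they thus pass only through a condition that is itself compared. This limits their calls in the comparisons with 2i, and the counts and medians that include them. The 3 comparisons share cultures with one another, so each is given by its own values.

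The first comparison, 2i against 2i+LIF, asks what differs without LIF. Tpm2, Myl9, Srf and Vcl were higher in 2i, none of the 7 genes was lower, and 3 did not pass (at an unadjusted limma p below 0.05, 6 were higher and 0 lower). Over all genes, 9.77% were called higher and 8.86% lower. The median log2 difference of the 7 genes was 0.63, against 0.04 over all genes. Tpm2 rose by 2.29 on the log2 scale (SE 0.18, limma adjusted p = 0.000353), with deposited bounds of 11.9 to 21.8 FPKM in 2i and 0.920 to 4.25 in 2i+LIF. This call held in each alternative analysis, including those that left out 1 culture. Myl9 rose by 1.62 (SE 0.28, limma adjusted p = 0.0081), which corresponds to 10.3-fold between the mean FPKM values. Its levels were low, the bounds of the 2 conditions overlapped, and the call was lost with a pseudocount of 5 (limma adjusted p = 0.131) or without 2i+LIF replicate 1 (limma adjusted p = 0.0516). Srf rose by 0.52 (SE 0.10, limma adjusted p = 0.015), and the difference remained between 0.44 and 0.60 without any 1 culture, but the call was lost without 2i+LIF replicate 2 (limma adjusted p = 0.0905), 2i replicate 1 (limma adjusted p = 0.0564) or 2i replicate 2 (limma adjusted p = 0.0614). Vcl was higher by 0.37 (SE 0.10, limma adjusted p = 0.046), a call that was lost whichever of the 8 cultures was left out (limma adjusted p = 0.0679 to 0.21). Without the shallow 2i replicate 1, Myl9 and Tpm2 were the only calls. Cnn2 differed by 0.82 (SE 0.27), Tagln by 0.63 (SE 0.24) and Tpm1 by 0.49 (SE 0.22), and none of these 3 passed (limma adjusted p = 0.0755, 0.116 and 0.166). Cnn2 passed when CH+LIF replicate 1 or 2 was left out (limma adjusted p = 0.0496 and 0.0497).

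The second comparison, CH+LIF against 2i+LIF, asks what differs without the Mek inhibitor. Only Tpm2 was higher (0.75, SE 0.18, limma adjusted p = 0.0225), none of the 7 genes was lower and 6 did not pass (at an unadjusted limma p below 0.05, 2 were higher and 0 lower). Over all genes, 12.2% were called higher and 13.3% lower; higher calls were 47.9% of all calls as deposited and 74.1% with each culture scaled to the same sum. The Tpm2 means were 4.94 FPKM ± 0.127 in CH+LIF and 2.55 FPKM ± 0.268 in 2i+LIF (SD, n = 2). Its call was lost without either culture of either condition: limma adjusted p was 0.108 without 2i+LIF replicate 1, 0.0659 without 2i+LIF replicate 2, 0.0888 without CH+LIF replicate 1 and 0.0867 without CH+LIF replicate 2. Among the genes that did not pass, Vcl differed by 0.32 (limma adjusted p = 0.0595) and Srf by 0.22 (limma adjusted p = 0.17), Myl9 by 0.36 and Cnn2 by 0.28, while Tagln and Tpm1 had negative differences of -0.24 and -0.16. The median of the 7 genes was 0.28, against 0.007 over all genes. When each culture was scaled to the same sum, which shifted the median of all genes by 0.1731, Vcl and Srf passed as well.

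The third comparison sets CH+LIF against 2i, both with CH, and so contrasts LIF with PD. Tpm2, Myl9 and Tagln were lower in CH+LIF, none of the 7 genes was higher and 4 did not pass (at an unadjusted limma p below 0.05, 5 were lower and 0 higher). Over all genes, 13.3% were called lower and 10.6% higher, and higher calls went from 44.5% to 64.0% of all calls with each culture scaled to the same sum. The median of the 7 genes was -0.65, against -0.03 over all genes. Tpm2 fell by 1.54 (SE 0.18, limma adjusted p = 0.00157) in each alternative as well. Myl9 fell by 1.25 (SE 0.28, limma adjusted p = 0.0185), with limma adjusted p = 0.0515 without 2i replicate 1, 0.0779 without 2i replicate 2, 0.0678 without CH+LIF replicate 1 and 0.0837 without CH+LIF replicate 2. Tagln fell by 0.87 (SE 0.24, limma adjusted p = 0.0395), with limma adjusted p = 0.163 without 2i replicate 1, 0.0719 without CH+LIF replicate 1, 0.169 without CH+LIF replicate 2, and 0.0619 and 0.0615 without 2i+LIF replicate 1 or 2. Without the shallow 2i replicate 1, Tpm2 was the only call. Tpm1 (-0.65), Cnn2 (-0.53), Srf (-0.30) and Vcl (-0.05) did not pass; Tpm1, at a limma adjusted p of 0.0701, passed when either LIF+PD culture was left out.

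**Figure D4:**
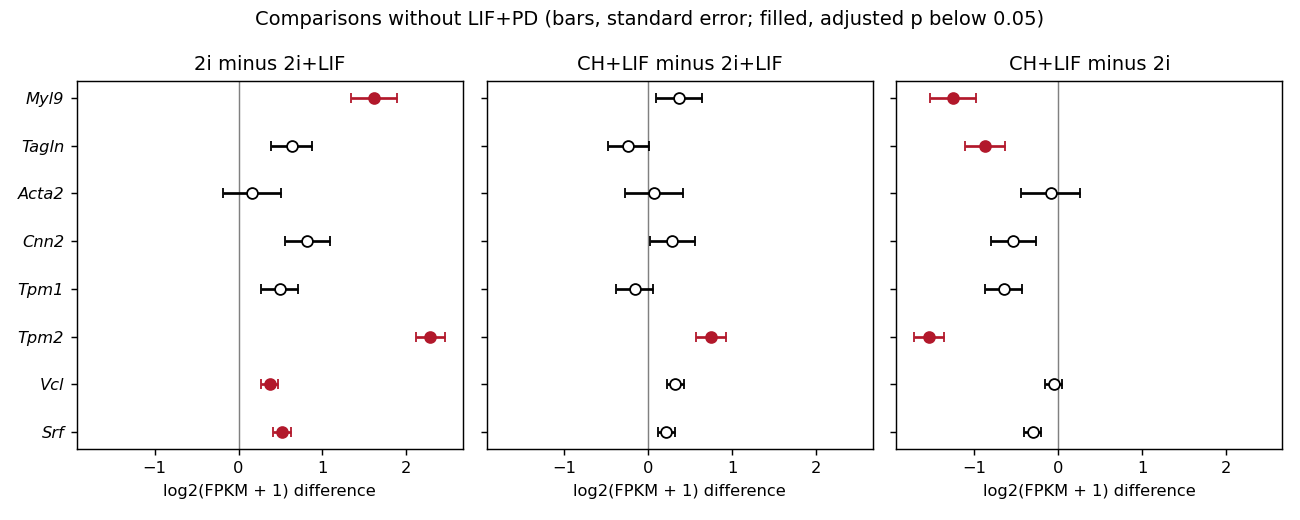
Difference in log2(FPKM + 1) of the 8 genes that passed the filter (Acta2 only through LIF+PD) in the 3 comparisons without LIF+PD; bars are standard errors and filled points have a limma adjusted p below 0.05. Tpm2 is filled in all 3 panels, Myl9 in those of 2i against 2i+LIF and CH+LIF against 2i, and Cnn2 and Tpm1 in none.

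The wider pathway was followed through 91 further genes in 7 lists, of which 79 passed the filter: SRF cofactors, other actins, non-muscle myosin II and its regulators, relatives and actin-filament binding proteins, focal adhesion proteins, and SRF targets linked to MRTF or to the TCFs. In 2i against 2i+LIF, 6 were higher, 12 lower and 61 did not pass, where 9.77% of all genes were higher and 8.86% lower. In CH+LIF against 2i+LIF, 16 were higher and 12 lower (12.2% and 13.3% of all genes), and in CH+LIF against 2i, 21 were higher and 11 lower (10.6% and 13.3% of all genes). Each list count below has the same background in its comparison. Without 1 culture, the 3 comparisons had 3 to 6 higher and 4 to 10 lower, 9 to 18 and 8 to 13, and 13 to 20 and 4 to 8. With each culture scaled to the same sum, these splits became 7 and 9, 22 and 10, and 25 and 7. In LIF+PD against 2i+LIF, 28 were higher and 10 lower, with a median difference of 0.28 against 0.03 over all genes. This last pair of counts comes from the contrast that chose the main set and is given only beside its background of 14.8% and 10.4%. Without 1 culture the LIF+PD counts ranged from 13 to 29 higher and from 5 to 10 lower.

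Among the cofactors, transcripts of Mkl1 and Mkl2, which encode the MRTFs, varied little: Mkl1 was at 8.44 to 10.1 FPKM and Mkl2 at 4.05 to 5.62 FPKM over the 8 cultures. Myocd, the cofactor of smooth muscle, was near 0, as given above. Of the 6 cofactors that passed the filter, none was called by limma in 2i against 2i+LIF, and 0 had an unadjusted p below 0.05. The TCF gene Elk3 was at 5.10 and 6.22 FPKM in CH+LIF and at 1.45 to 2.36 FPKM in the other 6 cultures, and rose by 1.03 (SE 0.16, limma adjusted p = 0.0055) against 2i+LIF. Elk1, another TCF gene, fell by 0.49 (SE 0.10, limma adjusted p = 0.0113) in the same comparison, a call lost in 4 of 15 alternatives, among them those without 2i+LIF replicate 1, 2i+LIF replicate 2 or CH+LIF replicate 2.

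The MRTF-linked targets outside the main set, 18 of 22 tested, were called in both directions among the conditions with CH. They numbered 2 higher and 3 lower in 2i against 2i+LIF, 4 and 4 in CH+LIF against 2i+LIF and 6 and 6 in CH+LIF against 2i, with medians of -0.04, -0.05 and -0.01. Of all genes, 9.77% and 8.86%, 12.2% and 13.3%, and 10.6% and 13.3% were called in these directions. Without 1 culture, the list had 2 to 3 higher and 1 to 4 lower, 2 to 5 and 2 to 5, and 3 to 6 and 2 to 4, and each median took either sign (up to 0.05, 0.04 and 0.07). Scaling each culture to the same sum turned the split in CH+LIF against 2i into 7 higher and 3 lower. In LIF+PD against 2i+LIF, 12 were higher and 2 lower, with a median of 0.74, and without 1 culture 6 to 12 were higher. Zyx, the adhesion protein zyxin, was at 4.04 and 5.18 FPKM in 2i+LIF, 13.5 and 14.8 in 2i, 23.4 and 30.7 in CH+LIF and 13.9 and 22.1 in LIF+PD. Zyx thus peaked in CH+LIF, where it rose by 2.32 against 2i+LIF (SE 0.23, limma adjusted p = 0.00115). Pdlim7, a LIM protein of actin filaments, was highest in LIF+PD and second in 2i, at 12.6 and 11.7 FPKM in 2i+LIF, 25.7 and 30.2 in 2i, 16.3 and 22.6 in CH+LIF and 38.6 and 44.1 in LIF+PD. Csrp1, another LIM protein, was at 34.7 and 35.2 FPKM in CH+LIF and at 85.1 to 108 FPKM in every other culture, including LIF+PD. The 2 targets that were lower in LIF+PD were Actg1 and Lima1, a filament-bundling protein at 45.5 and 38.7 FPKM there and 93.1 and 90.6 FPKM in 2i+LIF.

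The TCF-linked targets are immediate early genes, and 7 of 10 were tested. In 2i against 2i+LIF, none was called higher by limma (0 at an unadjusted p below 0.05) and 2 were lower, and in both CH+LIF comparisons 3 were higher and 1 lower. Against 2i+LIF, 12.2% of all genes were higher in CH+LIF, and the 3 higher calls became 0 to 2 whichever culture was left out. Against 2i, 10.6% of all genes were higher and there were 2 to 3 higher calls without 1 culture. Junb was at 7.70 and 11.1 FPKM in 2i+LIF, 1.20 and 0.789 in 2i, 13.9 and 20.9 in CH+LIF and 19.1 and 18.5 in LIF+PD, so it was lowest in the one medium without LIF. It fell by 2.37 in 2i against 2i+LIF (SE 0.23, limma adjusted p = 0.000935), the opposite direction to Myl9, Tpm2 and Srf in the same comparison. In LIF+PD, 2 TCF-linked targets were higher and 1 lower, the lower being the phosphatase gene Dusp1 at 8.66 and 8.47 FPKM against 34.9 and 32.3 FPKM in 2i+LIF.

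Some of the genes that set myosin activity and filament supply had patterns of their own. Of 15 tested myosin II genes and regulators, 6 were higher and 2 lower in LIF+PD against 2i+LIF, with 14.8% and 10.4% of all genes. Their median was 0.34, against 0.03 over all genes. Myl6 rose most, to 717 and 972 FPKM against 435 to 562 FPKM in the other conditions, and Rhob fell most. LIF+PD chose the main set, so these values are only described. In 2i against 2i+LIF, none of the 15 was called higher by limma (3 at an unadjusted p below 0.05) and 1 was lower. In CH+LIF against 2i+LIF, 1 was higher and 1 lower. Those 2 were the small GTPases Rhoc and Rhob. Rhoc was at 23.5 and 27.9 FPKM in CH+LIF and 7.50 to 15.1 FPKM elsewhere, and Rhob at 2.73 and 3.17 FPKM in CH+LIF and 6.90 to 13.2 FPKM elsewhere. Tmsb4x, thymosin beta, which sequesters monomeric actin, was at 250.1 and 265 FPKM in CH+LIF and 36.3 to 89.7 FPKM elsewhere, and rose by 2.37 against 2i+LIF (SE 0.16, limma adjusted p = 0.000364). These 3 genes therefore stood apart in CH+LIF, where 6 of the 7 genes of the main set did not pass against 2i+LIF. Of 22 relatives and filament-binding proteins, 2 were higher and 3 lower in 2i against 2i+LIF, 5 and 4 in CH+LIF against 2i+LIF, 5 and 3 in CH+LIF against 2i and 9 and 2 in LIF+PD against 2i+LIF. Of 22 focal adhesion proteins, 4 were higher and 3 lower, 6 and 4, 7 and 3, and 8 and 4 in the same order. The shares of all genes called higher and lower were 9.77% and 8.86%, 12.2% and 13.3%, 10.6% and 13.3%, and 14.8% and 10.4%. Without 1 culture, the filament-binding list had 1 to 3 higher and 1 to 3 lower, 4 to 5 and 3 to 5, 4 to 5 and 2 to 3, and 3 to 10 and 1 to 2. The focal adhesion list had 2 to 4 and 1 to 2, 3 to 8 and 2 to 4, 3 to 7 and 1 to 3, and 5 to 8 and 1 to 4.

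**Figure D5:**
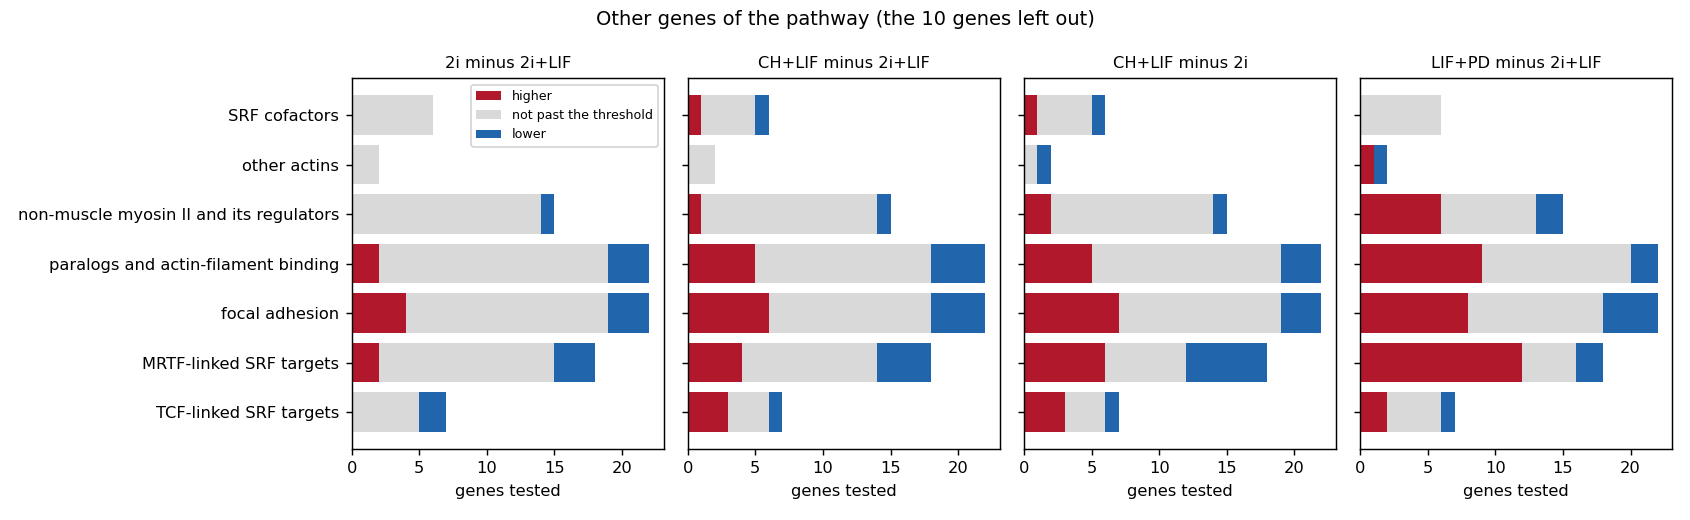
Number of tested genes called higher, called lower or not past the threshold in 7 lists of pathway genes (the 10 main genes left out) in 4 comparisons. MRTF-linked targets have 12 genes higher in LIF+PD against 2i+LIF and 2 to 6 in the other panels.

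Likeness to Myl9 was measured by Pearson's r of log2(FPKM + 1) over the 8 cultures, whose points fall into conditions and share the same libraries. LIF+PD, which chose Myl9, is one end of that range, so r is a description and not a test. Pearson's r measures linear likeness, which includes the size of the gaps between conditions and not only their order. By this measure, the genes outside the set most like Myl9, among 1715 genes that varied enough, were Phf19 (0.990), Glipr2 (0.990), Arhgap29 (0.988), Gadd45g (0.987) and Nkx2-9 (0.984). Phf19, a Polycomb-associated protein, was at 15.2 and 14.3 FPKM in LIF+PD, 1.62 and 1.71 in 2i, 0.606 and 0.979 in CH+LIF and 0.312 and 0.410 in 2i+LIF. Gadd45g, a stress-inducible gene, was at 20.4 and 26.7 FPKM in LIF+PD, 3.11 and 5.46 in 2i, 1.40 and 0.955 in CH+LIF and 0.725 and 1.18 in 2i+LIF. Both kept the order LIF+PD, then 2i, then the other conditions.

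On mm10, with positions counted from 1, Myl9 lies on chr2:156775420-156781658, Tagln on chr9:45929628-45936058, Acta2 on chr19:34241090-34255336, Actg2 on chr6:83512905-83536265 and Cnn1 on chr9:22099281-22109630. Cnn2 lies on chr10:79988584-79996062, Tpm1 on chr9:67022590-67049406, Tpm2 on chr4:43514711-43523765, Vcl on chr14:20929433-21033673 and Srf on chr17:46546839-46556162. All are annotated as protein coding, and the 10 genes are spread over 8 chromosomes, with Tagln, Cnn1 and Tpm1 on chromosome 9.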

How the data were processed

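RNA-seq of 8 RGd2 ESC cultures was analysed. Reads were single-end and were aligned by the authors with TopHat2 to mm10 (Ensembl 75), with unique alignments kept; the program that wrote the FPKM is not given in the sources used here, though the submitters' processing notes list Cufflinks and Cuffdiff. The labels name polyA RNA and the methods an rRNA-depleted library, which is unresolved. The deposited values are FPKM per gene with a lower and an upper bound. Each file held 39013 lines, and 22 identifiers occurred more than once.

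The test was limma 3.58.1 (R 4.3.3) on log2(FPKM + 1) with a mean-variance trend, all 8 cultures in 1 fit, genes that reached FPKM 1 in 2 or more cultures, and Benjamini-Hochberg adjustment. It was tested on simulated data. The pseudocount of 1 understates changes of low genes. Alternatives were other pseudocounts, filters and scalings, a replicate block and leaving out each culture.

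The 10 genes and all lists were chosen with earlier results of these data known. Named were the 10 genes, the 5 genes most like Myl9, and from each list the genes with the largest differences past the threshold at a mean FPKM of at least 5 (up to 2 in each direction). Of these list genes, those given in the text kept their calls under all 15 alternatives, other than Elk1 and, in LIF+PD against 2i+LIF, Junb. Mkl1, Mkl2 and the relatives of the main genes were named after their values were seen.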

Additional observations from a re-analysis of the deposited data

How the results depend on the processing

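With 2 cultures a condition, single calls depend on the settings. Of the 7 genes that passed the filter without LIF+PD, 4, 1 and 3 were called in 2i against 2i+LIF, CH+LIF against 2i+LIF and CH+LIF against 2i. With a pseudocount of 5 these became 2, 0 and 1. Without a filter the last 2 became 0 and 1, and with each culture scaled to the same sum the second became 3. Without 1 culture they ranged from 2 to 4, from 0 to 1 and from 1 to 4. With the replicate block they were 4, 1 and 4, the addition being Tpm1 in CH+LIF against 2i (limma adjusted p = 0.0425), and 2547, 3519, 3338, 3470, 3467 and 4105 genes were called in the 6 comparisons listed next. Same-numbered cultures showed little joint deviation (correlations of -0.0283 to 0.0925 over 6 pairs). Such correlations cannot exclude pairing that touches only part of the genes, and all 6 gene counts were higher with the block than without it. Whether the replicate numbers pair the cultures is therefore not decided.

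Genes called numbered 2408 in 2i against 2i+LIF (1167 to 2141 without 1 culture), 3286 in CH+LIF against 2i+LIF (1520 to 3330), 3089 in CH+LIF against 2i (1494 to 2705), 3263 in LIF+PD against 2i+LIF (1687 to 3342), 3242 in LIF+PD against 2i (1970 to 2966) and 3928 in LIF+PD against CH+LIF (2311 to 3991).

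The medians of the MRTF-linked genes, which were near 0, turned sign without 1 culture (up to 0.05, 0.04 and 0.07). Among the single genes followed, signs turned 3 times, each for a difference that was not called: Cnn2 in CH+LIF against 2i+LIF, to -0.0575 without CH+LIF replicate 2 (-0.0575 to 0.63 without 1 culture), and, with each culture scaled to the same sum, Tpm1 in CH+LIF against 2i+LIF, to 0.037, and Vcl in CH+LIF against 2i, to 0.079. The causes were not tested. That scaling shifted the median of all genes by 0.1731, 0.1182 and 0.1192 in CH+LIF against 2i+LIF, CH+LIF against 2i and LIF+PD against 2i+LIF. Absolute depth is unknown, so Acta2 and Cnn1 at or near 0 cannot be told from undetected.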
